A study of Mus musculus with 2 samples.

Results

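The genes described here are the histone genes of the large mouse histone cluster on chromosome 13, most of which are known as replication-dependent, chosen as every gene whose symbol in the deposited gene list starts with Hist1h. The rule found 54 genes among 31053. Of these, 6 encode the linker histone H1 and the others core histones, with 13 H2A, 15 H2B, 9 H3 and 11 H4 genes. The study profiled single cells of the developing mouse eye to ask what loss of Myrf, a membrane-associated transcription factor, changes in the retinal pigmented epithelium (RPE) and its neighbours. Both libraries analysed here came from eye cups at e15.5, with cornea, lens and optic nerve removed, and each pooled 3 samples. The control carried Myrf fl/fl, in which both Myrf copies can be deleted by Cre but were not, and the mutant carried the same alleles together with Rx>cre, a Cre transgene driven by regulatory sequence of the early eye field gene Rx. With 1 library per genotype there was no replicate check and no test, so every bracketed range is an exact 95% interval that covers counting error only. The genotype, the pool of animals and the library cannot be told apart.

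Replication-dependent histones are made in bulk when a cell copies its DNA, because each new chromatid has to be packed into nucleosomes of H2A, H2B, H3 and H4, with H1 on the linker DNA. Their mRNAs are unusual in that most end in a conserved stem-loop in place of a poly(A) tail. The stem-loop binding protein Slbp holds that structure, and the mRNAs are degraded when replication ends. The libraries were primed on poly(A), so the counts cover only those transcripts that carried a tail or an A-rich stretch, and a low count does not show that the histone mRNA was scarce. Replacement histones such as H2afz, H3f3a and H3f3b come from separate genes outside the cluster and are made throughout the cell cycle.

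The stem-loop is shown first because it separates the members by the end of their mRNA. All 54 members lie on mouse chromosome 13 (GRCm38), from 21715763 to 23934851, a span of 2219 kb, and 49 have a single exon. In the GENCODE gene models, 43 members had an annotated 3′ untranslated region (UTR), and 35 of these held the histone stem-loop consensus within 100 bases of the stop codon. Among all 21193 coding genes with a 3′ UTR the same consensus was found in 47 (0.222%). The abundant members below are printed 5′ to 3′ on the gene's strand, with the stem-loop letters in capitals and the flanking bases in lower case.
Hist1h2ap, chr13:21833026-21833049, minus strand: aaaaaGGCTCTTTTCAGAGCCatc
Hist1h2ae, chr13:23570663-23570688, minus strand: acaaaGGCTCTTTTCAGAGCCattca
Hist1h1e, chr13:23621777-23621802, minus strand: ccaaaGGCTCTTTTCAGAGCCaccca
Hist1h1c, chr13:23739507-23739532, plus strand: caaaaGGCTCTTTTCAGAGCCaccac
Hist1h3c, chr13:23745042-23745067, minus strand: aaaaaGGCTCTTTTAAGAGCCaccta
Hist1h4d, chr13:23581945-23581970, plus strand: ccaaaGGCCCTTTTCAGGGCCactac
Hist1h4i, chr13:22040961-22040986, minus strand: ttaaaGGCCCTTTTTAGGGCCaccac
The letters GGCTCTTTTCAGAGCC were shared by 20 members of the H1, H2A, H2B and H3 types. The 6 members with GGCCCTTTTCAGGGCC were all H4 genes, and Hist1h4i was the single member with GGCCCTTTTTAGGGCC. Annotation ended soon after the stem-loop for Hist1h2ap, 3 bases past it, and ran on for 840 bases in Hist1h1c and 770 bases in Hist1h4d. Hist1h2bc had no match in its 742 bases after the stop codon. It is a spliced H2B gene at chr13:23684199-23692908 on the plus strand, and its annotated transcript has 2 exons. Hist1h1b had no 3′ UTR annotated, so the letters could not be looked for there.

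The promoters of the cluster shared short motifs in different shares by histone type. RefSeq promoters of GRCm38.p6, 250 bases before to 50 after the start, were matched for 51 of the 54 members. A CCAAT box (CCAAT on either strand) stood in 43 of them (84.3%, against 37.4% of all 32851 promoters), including every matched H1, H2A, H2B and H3 promoter and 3 of the 11 H4 promoters. TATAAA on either strand stood in 31 (60.8%, against 13.6% of all). ATTTGCAT, the octamer, was present in 5 H2A and 5 H2B promoters and in none of the other types (1.74% of all promoters). AAACACA was present in 5 of the 6 H1, 2 of the 13 H2A and 2 of the 14 H2B promoters (7.18% of all). The promoters of Hist1h2ap, the member with the most counts, and of the linker gene Hist1h1b are shown with these letters in capitals. The motifs were counted independently of each other, so that overlapping letters count for both, and a match describes the letters and not a bound site.
Hist1h2ap promoter, chr13:21833426-21833725, minus strand: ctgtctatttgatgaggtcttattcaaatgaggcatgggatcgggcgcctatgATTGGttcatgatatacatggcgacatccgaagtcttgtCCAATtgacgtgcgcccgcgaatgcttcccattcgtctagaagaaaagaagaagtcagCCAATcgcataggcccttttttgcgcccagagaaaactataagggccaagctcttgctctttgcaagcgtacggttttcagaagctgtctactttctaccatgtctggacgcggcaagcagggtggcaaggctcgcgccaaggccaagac
Hist1h1b promoter, chr13:21780576-21780875, minus strand: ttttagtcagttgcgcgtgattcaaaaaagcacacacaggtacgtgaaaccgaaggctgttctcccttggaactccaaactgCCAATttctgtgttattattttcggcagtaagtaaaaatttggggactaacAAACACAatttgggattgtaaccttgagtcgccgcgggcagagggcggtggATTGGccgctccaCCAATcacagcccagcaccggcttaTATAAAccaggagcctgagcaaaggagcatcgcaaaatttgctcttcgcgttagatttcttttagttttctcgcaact

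The 2 libraries held 13017 and 13880 barcodes with 132436812 and 135678970 UMIs (unique molecular identifiers, each counting a captured molecule, so that no length correction was made), and 11518 control and 12576 mutant cells were kept, with medians of 9799.5 and 8938.5 UMIs. Of the barcode sequences, 69 occurred in both libraries. Cells were clustered without any histone or cell cycle list gene, and clusters were named from marker genes, so each class is called "-like". For 3 classes the markers were set against the other 3 of the progenitor-like, RPE-like, mesenchyme-like and pooled neuron-like classes. Over 2-fold above them were 11 of 11 mesenchyme markers, 10 of 12 RPE markers and 6 of 7 (control) or 5 of 7 (mutant) progenitor markers. The RPE marker Rgr, however, had no UMI in the mutant RPE-like cells. Melanocyte-like, pericyte-like and neurogenic progenitor-like cells were not part of the comparison. The RPE and melanocyte lists share Pmel, Mlana, Tyr and Tyrp1. The neuron-like and neurogenic progenitor-like classes were not checked in this way. Levels are given as CPM, UMIs per 1000000 UMIs of the cells summed. The 9 ganglion cell markers summed to 10082 and 9368 CPM in neuron-like cells and to at most 250.3 in progenitor-like, RPE-like and mesenchyme-like cells. For the 5 horizontal cell markers the sums were 620 and 508 against at most 28.4. The other neuron lists separated less. The 6 amacrine markers summed to 608 and 599, against 328 and 332 in mesenchyme-like cells. The 7 photoreceptor precursor markers summed to 1308 and 1558, against 473 and 412 in RPE-like cells. Myrf itself was at 77.4 CPM (293 UMIs) in control and 29.5 (55 UMIs) in mutant RPE-like cells, a ratio of 0.381 (0.28 to 0.51), so the targeted gene was lower where the label says so. The libraries also differed in the sex of the cells: 1 of the 11518 control cells and 38.4% of mutant cells had a Y-linked UMI and no Xist UMI. Beside the sums between genotypes in the 4 classes compared most closely, the value in cells with an Xist UMI and no Y-linked UMI is therefore given too.

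Hist1h UMIs made up 443939 of all UMIs kept. H2A genes held 45.3% of them, H1 genes 24.8%, H4 genes 11.6%, H2B genes 9.68% and H3 genes 8.56%. Hist1h2ap and Hist1h2ae, both H2A genes, held 41.1% of the total. No UMI was found for 3 members (Hist1h2aa, Hist1h2ba and Hist1h2bq), and 50 had at least 20. Because near-identical copies share sequence, counts of single members are uncertain: windows of 90 bases from the last 500 bases of each transcript were also found in another gene for more than 50% of the windows in 24 members, among them Hist1h2ap (92.5%), while Hist1h1b, Hist1h1c, Hist1h1d, Hist1h2bc and Hist1h4d shared none. For Hist1h1e the shared windows (97.6%) come from transcripts of Hist1h2be and Gm11398 that overlap it on the same strand.

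Retinal progenitor-like cells and the neurogenic progenitor-like cells that follow them had the highest summed Hist1h level. In progenitor-like cells it was 3319 CPM (3297 to 3342) in the control and 3565 (3545 to 3585) in the mutant, over 2416 and 3543 cells. Neurogenic progenitor-like cells stood at 3646 and 4087. RPE-like cells had 1032 (1000 to 1065) and 1040 (993.7 to 1087) over 377 and 216 cells, and periocular mesenchyme-like cells had 773.7 and 830.3 over 2439 and 1643 cells. Postmitotic neuron-like cells, which pool ganglion, amacrine, horizontal and photoreceptor precursor-like cells, had 378.6 and 448.6 over 1211 and 1688 cells. The order of these classes was the same in both libraries and no intervals of neighbouring classes among them overlapped. Among the neuron-like cells, the ganglion-like cells were lowest at 252 and 277, and the photoreceptor precursor-like cells were at 659 and 825. Outside the neural retina, macrophage-like cells were at 1943 and 1819, optic stalk-like cells at 1726 and 1587 and muscle-like cells at 1617 and 2323.

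**Figure D1:**
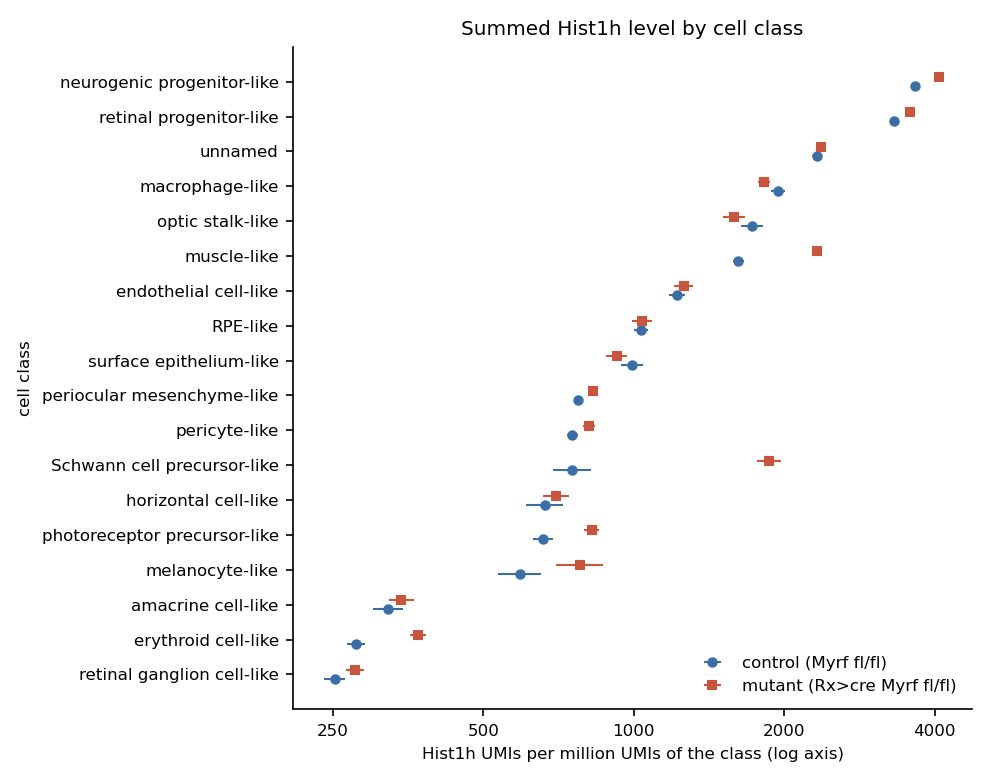
Summed Hist1h CPM of each cell class (x axis, log scale) for the control (circles) and the mutant (squares), with exact Poisson intervals. Neurogenic and retinal progenitor-like cells lie at the top in both libraries, between 3319 and 4087, and retinal ganglion cell-like cells at the bottom of the control at 252.

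The make-up by histone type differed between classes as well. In progenitor-like cells H2A genes gave 46.7% (control) and 46.3% (mutant) of the Hist1h UMIs, and H1 genes 25.1% and 23.2%. In neuron-like cells H1 genes led with 39.7% and 38.1%, and H2A genes gave 20.9% and 23.8%. H2B genes gave 25.2% and 30.8% in RPE-like cells, against 8.31% and 9.0% in progenitor-like cells. The UMIs were also spread unevenly over cells: the richest 10% of progenitor-like cells held 40.2% and 38.8% of them, and the richest 10% of mesenchyme-like cells 74.5% and 73.2%.

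To compare cell cycle positions, each cell was placed by 3 lists that hold no histone gene, of 18 G1/S, 20 S phase and 51 G2/M genes, at the list with the highest standardised share, or as low in all lists. Among progenitor-like cells 23.3% (control) and 22.6% (mutant) were placed in S phase, 33.2% and 34.2% in G1/S, 38.7% and 38.8% in G2/M, and 4.84% and 4.37% were low. With every cell thinned to 2000 UMIs the S phase shares were 24.8% and 25.1%, after leaving out shallower cells, 161 of them in the mutant. Cells within 0.1 of a boundary made up 11.8% and 10.3%, so the positions are ranges on a score and not discrete states.

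Progenitor-like cells in S phase held far more Hist1h UMIs than those low in all lists. The sum was 604 CPM (556 to 655) in low control cells, 1042 in G1/S, 6052 in S phase and 3725 in G2/M, and 701, 1100, 6276 and 4174 in the mutant. S phase over low was 10.0 (9.24 to 10.9) in the control and 8.96 (8.36 to 9.60) in the mutant, and S phase over G1/S was 5.81 and 5.71. The size depended on how the positions were set: with a cell placed only when a list lay above 0.5, it was 3.53 and 2.86, and with the S and G2/M scores of scanpy, S phase over G1 was 3.96 and 3.8. It was 3.45 and 8.08 in the cells of at most 2000 UMIs, of which 23 and 45 were in S phase and 8 and 11 low. The level in G2/M was 0.616 (control) and 0.665 (mutant) of that in S phase. The median S phase cell spent 0.563% and 0.585% of its UMIs on Hist1h genes, against 0.0494% and 0.0453% in low cells. The S phase class was not uniform: 10% of its cells lay at or below 0.0405% in the control. At least 1% of the UMIs came from Hist1h genes in 142 control and 271 mutant cells. None of these was low in all lists, and 61.3% and 55.4% were in S phase.

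**Figure D2:**
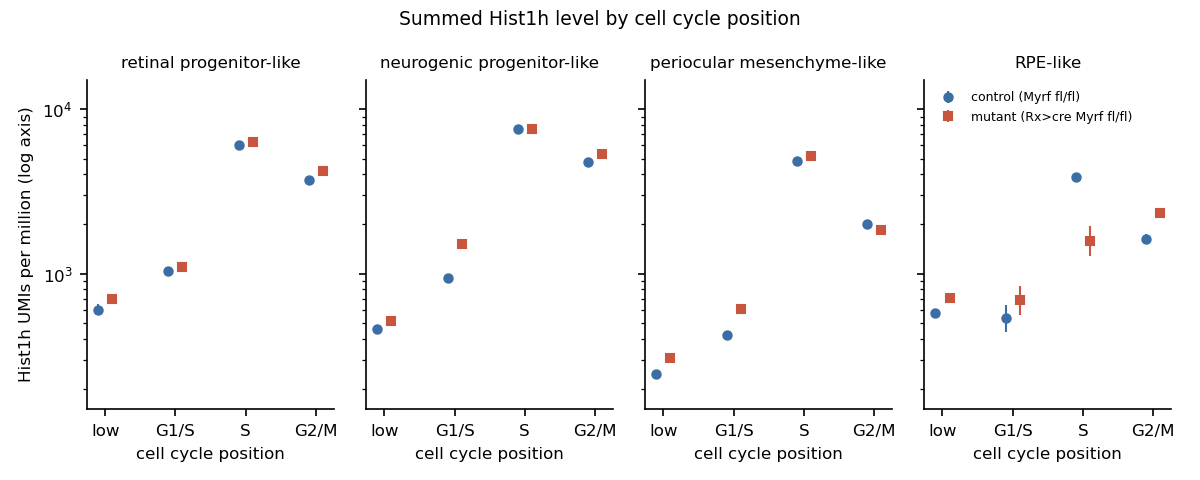
Summed Hist1h CPM (y axis, log scale) by cell cycle position in retinal progenitor-like, neurogenic progenitor-like, periocular mesenchyme-like and RPE-like cells, for the control (circles) and the mutant (squares), with exact Poisson intervals. In these 4 panels the control peaks in S phase, and the mutant RPE-like cells in S phase lie at 1578, below the control at 3862.

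Cells high for both the S phase and the G2/M list held more Hist1h UMIs than cells high for the S phase list alone. Combining the lists after the values had been seen, progenitor-like cells above the mean of the S phase and G2/M lists only had 6753 and 7577 CPM, cells above the mean of all 3 lists 7064 and 7540, and cells above the mean of G1/S and S phase only 1610 and 1653. The 24 control and 41 mutant cells high for S phase alone had 3033 and 2716. Cells high for G1/S alone (560 and 642) were near the cells low in all lists.

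Nearly every member followed the sum. Of the 44 members with at least 20 UMIs over the cells compared, 41 were 2-fold or more higher in S phase than in low cells in both libraries, where 5.50% of all genes tested were, and 1 was 2-fold lower, where 0.641% were. Of these members, 13 had no UMI in the low cells of the control and 4 none in those of the mutant. With those at a bound of 3 UMIs a library, 40 of the 44 were past 2-fold higher, and the median ratio of the members was 3.14 (control) and 3.1 (mutant) on the log2 scale, beside 0.14 and 0.13 for all genes. Against the G1/S cells, 44 of 46 members were 2-fold higher in S phase (1.86% of all genes) and 1 was lower (0.263% of all genes).

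Hist1h2ap and Hist1h2ae, the most abundant H2A genes, were higher in S phase. Hist1h2ap rose from 20.4 CPM in low control cells to 196 in G1/S and 1722 in S phase, with 981 in G2/M, and from 50.3 to 204, 1744 and 1068 in the mutant. Its S phase over low ratio was 84.2 (54.5 to 138) and 34.7 (26.9 to 45.5), so the libraries differed in the low cells, where the counts were 20 and 60 UMIs, more than in S phase. Hist1h2ae ran from 34.8 CPM to 1034 in the control and from 62.0 to 1077 in the mutant.

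Among the linker histones, Hist1h1b, the gene of the H1 variant H1-5, had the largest S phase ratios. It was at 13.3 CPM in low control cells and 655 in S phase, and at 9.22 and 584 in the mutant, ratios of 49.3 (28.8 to 92.6) and 63.4 (35.4 to 127). Hist1h1e, a further linker gene, kept more counts outside S phase, with 68.5 and 91.4 in low cells and 564 and 561 in S phase, ratios of 8.24 and 6.15. Hist1h1c had the smallest ratios of these linker genes, 4.22 (2.87 to 6.46) and 4.51 (3.17 to 6.64). Hist1h1d ran from 9.20 to 151 and from 6.70 to 161, and with Hist1h1a it was among the 4 members that were 2-fold lower in G2/M than in S phase in both libraries, the others being Hist1h3a and Hist1h4a (3.32% of all genes were 2-fold lower, and none of the members and 1.13% of all genes 2-fold higher).

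Among the H3 and H4 members, Hist1h4i stood apart by its level in low cells. Hist1h3c went from 10.2 and 10.1 CPM in low cells to 176 and 207 in S phase, and the S phase over low ratios of Hist1h3e were 11.0 and 10.8. The H4 genes Hist1h4d and Hist1h4h had S phase over low ratios of 11.7 and 13.6 and of 8.61 and 6.44. Hist1h4i was already at 110 and 94.7 in low cells and reached 251 and 258, ratios of 2.27 (1.87 to 2.79) and 2.73 (2.25 to 3.33). The H4 sum over low cells was thus 4.25 and 4.51, below the H3 sum of 15.6 and 15.3 and the H2A sum of 40.9 and 19.4. Without Hist1h4i it was 10.9 (7.72 to 16.04) and 8.04 (6.19 to 10.6), and the low cells were at 32.7 and 47.8 CPM, beside 30.7 and 36.9 for the H3 genes.

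Hist1h2bc ran the other way. This H2B gene was at 197 CPM (193 UMIs) in low control progenitor-like cells, 103 in G1/S, 34.5 (193 UMIs) in S phase and 58.7 in G2/M, and at 183, 84.8, 40.5 and 64.2 in the mutant. S phase over low was 0.175 (0.142 to 0.215) and 0.222 (0.185 to 0.265), and it was the member counted as lower above. It was highest in low cells and lowest in S phase in both libraries. In the cells of at most 2000 UMIs the control value was 1.58, from 23 S phase and 8 low cells. Over the 10 alternatives the mutant value ran from 0.202 to 0.696, so it was not 2-fold lower in all of them. In low cells Hist1h2bc alone outweighed every other H2B member together, which summed to 37.8 and 41.9. The H2B sum therefore rose only 1.68-fold and 2.04-fold in S phase, whereas the other H2B members rose 9.53-fold (6.89 to 13.6) and 9.97-fold (7.54 to 13.5). Hist1h2bc is the spliced gene described above, without the stem-loop letters, and it shared no window with another gene. Hist1h2br, a further spliced H2B gene with no match to the stem-loop in its 1803 bases after the stop codon, was higher in S phase, 9.73 (3.27 to 47.7) and 8.52 (3.61 to 26.5), from 3 and 5 UMIs in low cells. Of its windows 82.5% were also found in other H2B genes, so it is uncertain whether these counts are its own.

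**Figure D3:**
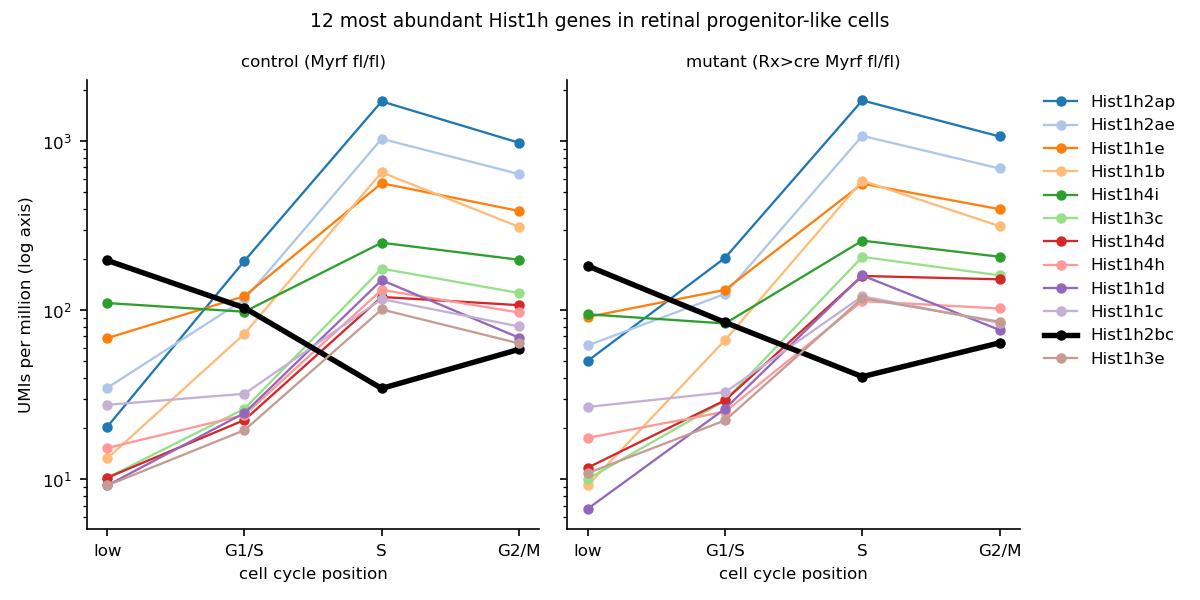
CPM (y axis, log scale) of the 12 members with the most UMIs in retinal progenitor-like cells by cell cycle position, control on the left and mutant on the right. Of the 12, 11 peak in S phase, and Hist1h2bc (black) falls from 197 and 183 in low cells to 34.5 and 40.5 in S phase.

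Other classes were compared in the same way. In mesenchyme-like cells Hist1h2bc was at 44.4 and 47.8 in low cells and 21.6 and 22.9 in S phase, ratios of 0.488 (0.366 to 0.638) and 0.480 (0.342 to 0.656), while 40 of the 41 members tested there were 2-fold higher in S phase (5.53% of all genes), and Hist1h2bc was the 1 that was 2-fold lower (3.32% of all genes). In neurogenic progenitor-like cells its ratios were 0.380 and 0.645, and 40 of 41 members were 2-fold higher (11% of all genes) and none 2-fold lower (6.68% of all genes). In RPE-like cells it was at 254 and 309 when low and at 33.6 (11 UMIs) and 119 (7 UMIs) in S phase, among only 22 and 12 cells. The summed level rose 19.8-fold and 16.9-fold from low to S phase in mesenchyme-like cells and 16.6-fold and 14.6-fold in neurogenic progenitor-like cells. In RPE-like cells it rose 6.75-fold (6.26 to 7.28) in the control and 2.22-fold (1.77 to 2.75) in the mutant, where G2/M cells, at 2343 CPM, lay above the S phase cells at 1578. In RPE-like cells 7 members could be tested, of which 3 were 2-fold higher in both libraries (3.17% of all genes), namely Hist1h2ap, Hist1h2ae and Hist1h1e, and Hist1h2bc was 2-fold lower (2.68% of all genes).

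RPE-like cells had the highest Hist1h2bc level of any class in both libraries, 228 CPM (213 to 244) in the control and 284 (260 to 309) in the mutant. Optic stalk-like cells came next with 204 and 145, and the control intervals of these neighbours overlapped. Relative to progenitor-like cells Hist1h2bc was 3.17-fold (2.92 to 3.44) and 4.09-fold (3.72 to 4.49) higher in RPE-like cells, the single member that was 2-fold higher in both (13.2% of all genes were), while 42 of the 48 members tested were 2-fold lower (14.8% of all genes). Cells low in all lists made up 72.4% and 67.1% of the RPE-like cells. Within low cells alone the difference was smaller, 1.29-fold (1.09 to 1.52) in the control and 1.69-fold in the mutant. With each cell thinned to 2000 UMIs, 28.1% and 30.1% of RPE-like cells and 12.4% and 11.7% of progenitor-like cells had a Hist1h2bc UMI, against 5.51% and 6.02% of horizontal cell-like cells, the lowest of the classes looked at (unthinned 46.7% and 44.0%, 36.6% and 34.6%, and 13.8% and 13%).

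Most other members were lower in RPE-like than in progenitor-like cells, with Hist1h1c the main exception among the abundant ones. Without Hist1h2bc the Hist1h sum of the RPE-like cells was 0.248 and 0.216 of the progenitor level, and the H2B sum was 0.159 and 0.145 in place of 0.945 and 0.999. Hist1h1c was at 78.2 and 95.4 CPM in RPE-like cells and 71.9 and 74.4 in progenitor-like cells, ratios of 1.09 (0.958 to 1.23) and 1.28 (1.1 to 1.49), and it was highest in macrophage-like cells at 209 and 162. Hist1h4i stood at 0.431 and 0.446. Hist1h2ap was at 185 and 124 against 873 and 913. The progenitor marker list summed to 0.139 and 0.201 of its progenitor level in RPE-like cells, and the part of RNA from other cells in these counts was not tested.

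In mesenchyme-like cells every tested member but 8 was 2-fold lower than in progenitor-like cells in both libraries (41 of 49, where 14.8% of all genes were), and none was 2-fold higher (19.5% of all genes). The sum was 0.233 of the progenitor level in both. Only 5.33% and 5.05% of the mesenchyme-like cells were placed in S phase, and those cells reached 4859 and 5179 CPM, against 6052 and 6276 in progenitor-like cells in the same position. Hist1h1b was at 760 and 716 there and at 5.08 and 9.23 in low mesenchyme-like cells.

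Neuron-like cells, of which 98.9% and 98.3% were low in all lists, had a Hist1h sum of 0.114 (0.111 to 0.117) and 0.126 (0.123 to 0.129) of that in progenitor-like cells, and 0.270 and 0.296 in the cells of at most 2000 UMIs, 37 and 40 of them neuron-like. Of 48 members tested, 44 were 2-fold lower in both libraries (15.4% of all genes), and none was 2-fold higher (18% of all genes). The medians of the members were -3.71 and -3.37 on the log2 scale with members without a UMI at a bound of 3, beside 0.03 and 0.02 for all genes. For comparison, the G1/S list had medians of -3.25 and -3.05 and the S phase list -3.73 and -3.51.

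The members were not equally low. Hist1h1e gave the most UMIs of any member in neuron-like cells, 96.9 and 104 CPM, ratios of 0.289 and 0.305 to progenitor-like cells. Hist1h2bc was at 41.8 and 45.3, with ratios of 0.581 (0.526 to 0.640) and 0.651 (0.601 to 0.706), and Hist1h1c was at 33.9 and 42.2, ratios of 0.472 and 0.567. By contrast Hist1h2ap was at 35.6 and 48.8, ratios of 0.0407 and 0.0534, and Hist1h2ae at 31.4 and 43.7. Hist1h1b (0.0292 and 0.0438) and Hist1h3c (0.0174 and 0.0326) lay at the low end. The progenitor marker Fgf15 (0.0271 and 0.0359) was at ratios near those of Hist1h2ap and Hist1h1b, and the whole progenitor marker list was at 0.098 and 0.114. The part of RNA from other cells in counts at these ratios was not tested. Hist1h1e, Hist1h1c and Hist1h2bc lay above them in both libraries.

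The members best kept in neuron-like cells were mostly those with a long annotated 3′ UTR. Of the 10 members with the highest mean ratio, 8 had an annotated 3′ UTR over 300 bases, a limit set after the values had been seen, against 15 of the 48 tested. The median ratio was 0.205 and 0.210 among those over 300 bases and 0.0518 and 0.0687 among the rest, with ranges from 0.0476 to 0.770 and from 0 to 0.309 in the control. The rest are the 33 tested members with 300 bases or less or with none annotated. Hist1h1b is among the latter, and a missing annotation is not a short 3′ UTR. Hist1h4j (0.770 and 0.658, with 430 bases), Hist1h3d (0.698 and 0.437, with 799 bases), Hist1h1c (880 bases) and Hist1h2bc (742 bases) led. Hist1h4j and Hist1h3d had few UMIs, and both had their highest level in horizontal cell-like cells. Hist1h4j had 11 and 10 UMIs there and Hist1h3d 25 and 31. For both, the intervals overlapped those of the next class in each library. No test was made of this relation. In mesenchyme-like cells the medians relative to progenitor-like cells were 0.292 and 0.260 over 300 bases and 0.245 and 0.232 for the rest, and in RPE-like cells they were 0.252 and 0.298 against 0.210 and 0.130. Hist1h2br, with 1803 bases and 82.5% of its windows shared with other genes, was at 0.0476 and 0.0578 in neuron-like cells.

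**Figure D4:**
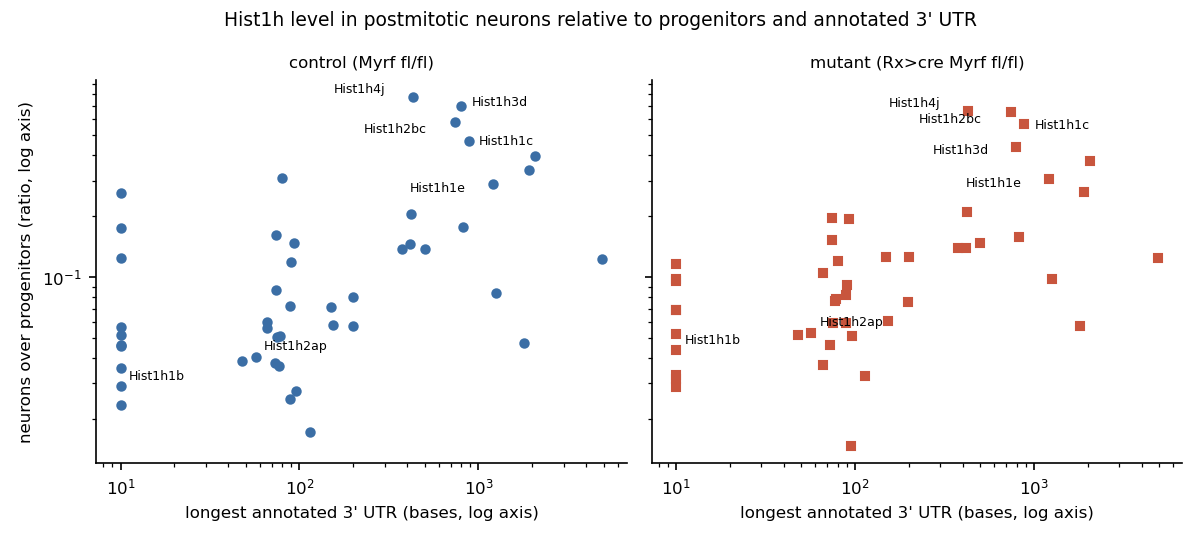
Ratio of each member's level in neuron-like to progenitor-like cells (y axis, log scale) against its longest annotated 3′ UTR (x axis, bases, log scale), control on the left and mutant on the right, each point a member. Members with none or under 10 bases are drawn at 10, and 2 control members and 1 mutant member at a ratio of 0 are not drawn. Hist1h4j, Hist1h2bc, Hist1h3d and Hist1h1c lie at the top, from 0.472 to 0.770 in the control.

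Between genotypes the members differed little in progenitor-like cells. The sum was 1.07-fold (1.06 to 1.08) that of the control, and 1.06-fold in cells with an Xist and no Y-linked UMI, where 5 members were 1.5-fold higher (3.11% of all genes) and none lower (3.32% of all genes). By type the ratios were 0.996 (0.979 to 1.01) for H1, 1.07 for H2A, 1.16 (1.13 to 1.20) for H2B, 1.23 (1.19 to 1.26) for H3 and 1.1 for H4. Of the 49 members tested, 42 had a ratio above 1, and the interval lay above 1 for 26 (8.76% of all genes) and below 1 for 1 (14% of all genes). Past 1.5-fold 2 members were higher (3.21% of all genes) and none was lower (2.09% of all genes), so the shift was broad and small. The median of the members was 0.27 on the log2 scale, beside -0.02 for all genes. Within each position the sum was 1.16-fold in low cells, 1.06-fold in G1/S, 1.04-fold in S phase and 1.12-fold in G2/M.

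Both members past 1.5-fold were scarce. Hist1h2ag, an H2A gene, had 392 control UMIs (15.3 CPM) and 876 mutant UMIs (24.8 CPM). Its ratio was 1.62 (1.43 to 1.83), 1.62 in cells with an Xist and no Y-linked UMI and 4.03 in the cells of at most 2000 UMIs, 111 and 161 of them. Hist1h4n, an H4 gene, had 58 and 134 UMIs, a ratio of 1.67 (1.22 to 2.32). These genes share 77.5% and 80% of their windows with other histone genes. Of the abundant members, Hist1h4d was at 81.1 and 112 (1.38, 1.31 to 1.46) and Hist1h3c at 103 and 126 (1.22, 1.16 to 1.28), while Hist1h1e (335 and 341), Hist1h4i (177 and 177) and Hist1h2bc (72.0 and 69.5) had intervals that include 1. Of the 7 members with a ratio below 1, Hist1h1b was the one whose interval left out 1, at 305 and 286, a ratio of 0.938 (0.910 to 0.966). The G1/S, S phase and G2/M lists had no gene past 1.5-fold, with medians of -0.05, -0.05 and -0.03.

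**Figure D5:**
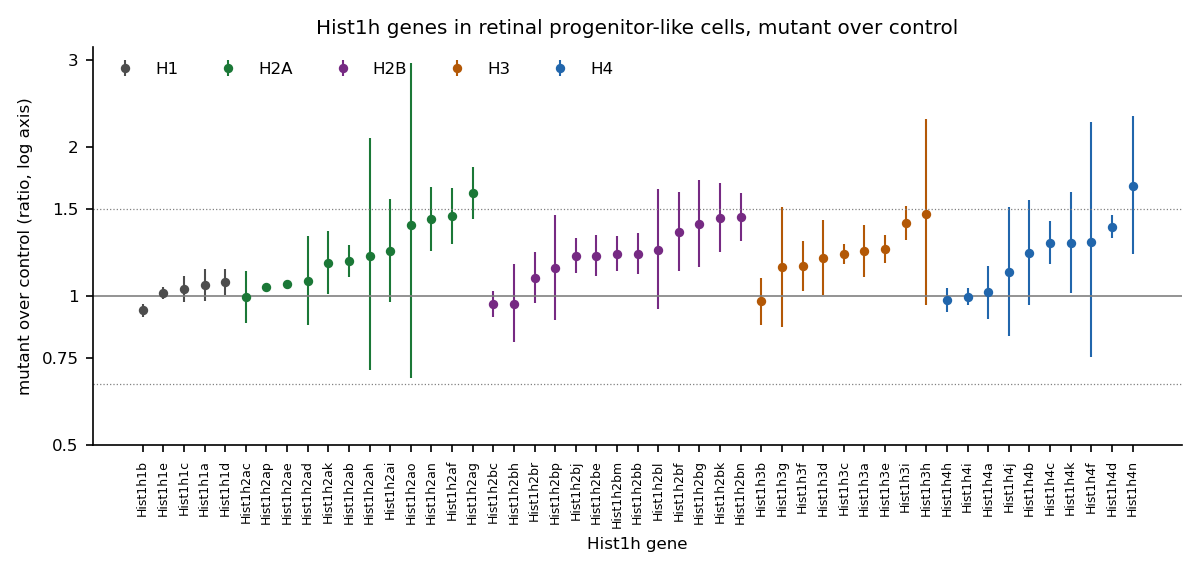
Mutant over control ratio (y axis, log scale) of the 49 members tested in retinal progenitor-like cells, with exact conditional intervals, grouped and coloured by histone type. Solid line, a ratio of 1; dotted lines, 1.5-fold either way. Of the points 42 lie above 1, and Hist1h4n and Hist1h2ag lie past the upper dotted line.

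In RPE-like cells, the tissue in which Myrf is expressed, the sums of both genotypes were close, 1.01-fold (0.953 to 1.06), but the direction was not stable, with 1.24-fold in cells with an Xist and no Y-linked UMI, 41 of them in the mutant, 0.889-fold with each cell thinned to 2000 UMIs, and 1.75-fold in the 128 and 93 cells of at most 2000 UMIs. The mutant RPE-like cells were also shallower, with a median of 3064 UMIs against 6181. Of 26 members tested 4 were 1.5-fold higher (5.15% of all genes) and 2 lower (8.7% of all genes), and among these only Hist1h2ag had an interval without 1, at 2.64 (1.07 to 6.72) from 10 and 13 UMIs. Over all 26 the interval lay above 1 for 3 (5.72% of all genes), namely Hist1h2ag, Hist1h2bc and Hist1h1c, and below 1 for 2 (7.51% of all genes), Hist1h2ap and Hist1h1b. Hist1h2bc was 1.25-fold (1.12 to 1.39) higher, and without it the sum was 0.939 (0.881 to 1.00). In low RPE-like cells the sum was 1.24-fold (1.15 to 1.35), in G2/M 1.44-fold (1.31 to 1.58) and in S phase 0.409 (0.327 to 0.505). That last value rests on 22 control and 12 mutant cells with median depths of 12020 and 902.5 UMIs.

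Mesenchyme-like cells, which do not derive from the eye field, had a sum ratio of 1.07 (1.05 to 1.09), which was 0.995 in cells with an Xist and no Y-linked UMI and 9.68 in the 11 and 11 cells of at most 2000 UMIs. The positions went opposite ways, with 1.25-fold (1.21 to 1.29) in low cells, 1.44-fold (1.32 to 1.57) in G1/S, 1.07-fold (1.04 to 1.09) in S phase and 0.917 (0.885 to 0.95) in G2/M. Of 46 members 3 were 1.5-fold higher (5.61% of all genes) and none lower (2.98% of all genes), with intervals above 1 for 10 (13.4% of all genes) and below 1 for none (16.9% of all genes). The 3 were Hist1h2bn (1.63, 1.24 to 2.15), Hist1h4n (1.89, 1.03 to 3.49) and Hist1h2af (1.80, 1.41 to 2.31). In neuron-like cells the sum was 1.18-fold (1.14 to 1.23), and 1.22-fold in the cells with an Xist and no Y-linked UMI. There 8 of 36 members were 1.5-fold higher (3.5% of all genes) and 1 lower (3.09% of all genes). The interval lay above 1 for 10 of the 36 (6.84% of all genes) and below 1 for none (10.8% of all genes). Past 1.5-fold these were Hist1h3i (1.70, 27 and 63 UMIs), Hist1h2bj (2.11, 28 and 81 UMIs) and Hist1h3c (2.28, 23 and 72 UMIs). Hist1h3c there lay at ratios to progenitor-like cells as low as those of Fgf15, which were also higher in the mutant, and the part of RNA from progenitor-like cells in its difference between genotypes was not tested. Few neuron-like cells were placed in S phase, 4 and 7, or G2/M, 1 and 7, and in the low neuron-like cells alone the sums were 369 and 415 CPM. In neurogenic progenitor-like cells the sum was 1.12-fold (1.11 to 1.14). Of 48 members there, 5 were 1.5-fold higher (3.43% of all genes) and none lower (2.96% of all genes), and the interval lay above 1 for 27 (7.3% of all genes) and below 1 for 2 (10.1% of all genes). Hist1h2ag (1.67, 1.35 to 2.08) and Hist1h4n (1.80, 1.06 to 3.14) were higher here as well.

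Most replacement histones and histone-handling genes were within 2-fold between S phase and low cells. Of the 11 replacement histones 1 was 2-fold higher (5.50% of all genes) and 1 lower (0.641% of all genes) in S phase over low progenitor-like cells, with medians of -0.03 and 0.04 on the log2 scale. H2afz, the gene of H2A.Z, was at 3776 and 3521 CPM in low cells and 4683 and 4412 in S phase, and H3f3a, which encodes H3.3, was at 3278 and 2977 in low and 2931 and 2779 in S phase. Of 9 tested histones of clusters 2, 3 and 4, 5 were 2-fold higher in S phase and none lower, beside the same shares of all genes. Of the 18 tested genes for histone transcription and 3′ end processing 2 were higher (5.50% of all genes). Slbp was at 156 and 158 in low cells, 261 and 266 in G1/S, 327 and 341 in S phase and 143 and 142 in G2/M, lowest in G2/M, where the Hist1h sum was 3725 and 4174. Of the 15 chaperones, 4 were higher (5.50% of all genes) and none lower (0.641% of all genes), with medians of 0.52 and 0.47. The chaperone Mcm2 is also in the G1/S list, and the replacement histone Cenpa is also in the G2/M list. These 2 genes therefore helped to place the cells in which they were compared. In neuron-like cells none of the replacement histones was 2-fold higher than in progenitor-like cells (18% of all genes) and 5 of 11 were 2-fold lower (15.4% of all genes), and H3f3a (4555 and 4360) and H3f3b (4248 and 4154) were the most abundant.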

How the data were processed

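Single-cell RNA was counted in 2 libraries, 1 per genotype, each from 3 pooled eye cup samples. Per the labels and the methods of the study, reads were aligned to mm10 and UMI counts per gene and barcode were made by the authors with Cell Ranger 7.1.0, although the deposited matrix header names software 3.1.0. Seurat 4.1.1 is named in the submitters' processing notes. The deposited counts are not normalized.

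From them, cells with at least 200 genes and at most 15% mitochondrial UMIs were kept. Scrublet called 424 of 11942 control cells (3.55%) and 442 of 13018 mutant cells (3.40%) as doublets, below the 9.55% and 10.4% expected, and these were removed. The upper limit on counts by which the study removed doublets was not applied, and was run as an alternative. Cells were clustered with scanpy 1.11.5 under Python 3.11.15 (1950 variable genes without histone, cell cycle list, haemoglobin, mitochondrial, Xist, Y-linked or Myrf genes, 30 principal components, 15 neighbours, Leiden resolution 1), which gave 31 clusters, named by marker genes. Clusters of low depth with no marker of their best class among their leading genes were left unnamed. UMIs were summed per class, position and library and scaled to 1000000 UMIs (CPM). Without replicates no test was possible. Sums have exact Poisson intervals, ratios exact conditional binomial and shares exact Clopper-Pearson intervals at 95%, computed with scipy 1.17.1, and a bound uses 3 UMIs per library. A gene entered a comparison with at least 20 UMIs over the cells compared, and was counted past 1.5-fold between genotypes and past 2-fold between positions or classes in both libraries. The ratios, their intervals and the fold calls were tested on simulated UMI sums, drawn from the Poisson model that the intervals assume. Thinning was checked on real cells. Clustering, naming, placement of cells and the sequence searches were not tested on simulated data.

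Named members were the 12 with the most UMIs in progenitor-like cells, the 5 with the most in neuron-like cells, those past 1.5-fold between genotypes with an interval that leaves out 1 (up to 6 a class), any higher in neuron-like than in progenitor-like cells in both libraries with such intervals, and members that a sentence singles out after their values were seen. The members and gene lists were chosen with earlier results of these data known. Alternatives covered the mitochondrial limit, doublets, UMI limits, clustering, thinning, the richest cells, sex-linked UMIs, scaling, per-cell means and the placement of cells. The alternatives for Hist1h2bc and Hist1h2ag, the bound, the 3′ UTR limit, the sums without single members and the list combinations were chosen after seeing the data.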

Additional observations from a re-analysis of the deposited data

Results flagged for a closer look

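For Hist1h1b and Hist1h2ap the mutant over control ratio lay on opposite sides of 1 in different cell classes, with intervals that leave out 1 on each side. The difference between classes was not tested, since each genotype had 1 library. Hist1h2ap was 0.668 (0.573 to 0.776, 702 and 231 UMIs) in RPE-like cells, against 1.05 (1.03 to 1.06) in progenitor-like, 1.08 (1.04 to 1.12) in mesenchyme-like and 1.37 (1.22 to 1.54) in neuron-like cells. Hist1h1b was 0.699 (0.528 to 0.916, 212 and 73 UMIs) in RPE-like and 0.938 (0.910 to 0.966) in progenitor-like cells, against 1.41 (1.12 to 1.78, 114 and 220 UMIs) in neuron-like cells. In mesenchyme-like cells the positions lay on both sides of 1. Hist1h2ap was 1.71 (1.52 to 1.93) in low cells, 1.90 (1.56 to 2.33) in G1/S and 0.859 (0.801 to 0.922) in G2/M, and Hist1h1b 1.82 (1.45 to 2.28) in low cells, 1.79 (1.35 to 2.38) in G1/S and 0.794 (0.710 to 0.887) in G2/M. In the low neuron-like cells alone Hist1h1b was 1.22 (0.951 to 1.56), an interval that includes 1, and Hist1h2ap 1.30 (1.14 to 1.47). Of the mutant Hist1h1b UMIs, 19 and 22 came from the 7 cells in S phase and the 7 in G2/M, against 0 and 3 in 4 and 1 control cells. In neuron-like cells both members lay at ratios to progenitor-like cells near those of the progenitor marker Fgf15, which rose from 0.0271 to 0.0359 in the mutant, and the part of RNA from progenitor-like cells in these values was not tested.

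Within RPE-like cells the low ratios sat in S phase. Hist1h2ap was 0.398 (0.261 to 0.584) there, from 391 and 28 UMIs in 22 and 12 cells, and 1.21 (0.877 to 1.66) in low cells, 1.14 in G1/S and 1.23 (0.970 to 1.55) in G2/M. Hist1h1b was 0.200 (0.0536 to 0.527) in S phase, from 111 and 4 UMIs. The 12 mutant cells had a median of 902.5 UMIs, and the part of this depth in the result was not tested.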

How the results depend on the processing

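No paired analysis was possible because each genotype had 1 library. Of the alternative values for the summed levels and the count of members, 46 moved by less than their interval, 55 moved further and 1, with an interval on 1 side of 0, reversed, and the cause was not tested. Values are log2 ratios. For mutant over control in progenitor-like cells (0.10) they were 0.069 with 5% mitochondrial UMIs, 0.12 without cells over 20000 UMIs, 0.28 without cells over 2000 UMIs, 0.13 thinned, 0.083 in cells with Xist but without Y-linked UMIs, 0.12 without abundant genes, 0.13 as a per-cell mean and 0.13 with a median of ratios factor. In RPE-like cells (0.0098, with an interval that spans 0, so that its changes of sign count as moves) they were 0.53, 0.24, 0.80, -0.17 and 0.31 for the first 5 of these in the same order, -0.12 without the 5 richest cells and 0.35 as a per-cell mean. In mesenchyme-like cells (0.10) they were 0.14 with doublets kept, 3.27 without cells over 2000 UMIs, 0.035 at resolution 0.5, 0.061 without the richest cells and, reversed, -0.0074 in cells with Xist but without Y-linked UMIs. In neuron-like cells (0.24) they were 0.16 with doublets kept, 0.41 without cells over 2000 UMIs and 0.19 as a per-cell mean.

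For neuron-like over progenitor-like cells (control -3.13, mutant -2.99) the values were -3.56 and -3.43 with 5% mitochondrial UMIs, -2.58 and -2.51 with doublets kept, -3.005 and -2.93 without cells over 20000 UMIs, -1.89 and -1.76 without cells over 2000, -2.89 and -2.77 thinned, -3.19 and -3.07 without the richest cells, -3.23 and -3.09 without abundant genes, -2.80 and -2.74 as a per-cell mean, and -2.92 in mutant cells with Xist but without Y-linked UMIs. For S phase over low (3.32 and 3.16) they were 1.79 and 3.02 without cells over 2000 UMIs, 1.98 and 1.93 with scanpy scores, 2.83 and 2.54 with positions from thinned cells and 1.82 and 1.52 at a limit of 0.5, 3.202 in the control with doublets kept, and in the mutant 3.29 in cells with Xist but without Y-linked UMIs, 3.06 without abundant genes and 3.30 as a per-cell mean. The 2 members past 1.5-fold, both higher (3.21% of all genes), became 4 without cells over 20000 UMIs (3.29%), 1 without cells over 2000 (16.8%), 5 in cells with Xist but without Y-linked UMIs (3.11%), all of them higher, and 0 at 2-fold (0.898% higher and 0.572% lower). For Hist1h2bc and Hist1h2ag, 39 of the alternatives added after seeing the data moved by less than their interval, 10 moved further, and the control S phase over low ratio of Hist1h2bc reversed to 0.66 without cells over 2000 UMIs. Its mutant ratio ran from -2.31 to -0.52 over the alternatives. The upper limit of 2000 UMIs is the one in the methods of the study. It kept 128 (of 377) and 93 (of 216) RPE-like cells, 111 and 161 progenitor-like, 37 and 40 neuron-like and 11 and 11 mesenchyme-like cells. The shallow clusters left unnamed are not among these.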

Other observations

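The cells of 3 clusters could not be named, 2179 in the control and 2320 in the mutant. Cluster 9 had medians of 1192 and 1243 UMIs per cell and a summed Hist1h level of 2878 (2818 to 2938) and 2951 (2895 to 3008) CPM. Cluster 1 was shallower, with medians of 883 and 899 UMIs, and had 1056 and 1061 CPM. It stayed unnamed by the same rule, with the periocular mesenchyme list as its best match (1.16, against 0.85). Cluster 16 had 323 and 367 CPM.

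A histone gene outside cluster 1 was also lower in S phase than in low cells. Hist3h2ba, an H2B gene chosen here after its values were seen, was at 179 and 175 CPM in low progenitor-like cells, 127 and 117 in G1/S and 105 and 121 in S phase, so that against G1/S it was lower in the control alone. Hist2h2ac, an H2A gene of cluster 2, was at 1.0 and 2.5 in low cells, 10.7 and 13.4 in G1/S and 69.3 and 73.2 in S phase.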
